A study of Homo sapiens with 6 samples.

Results

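CCN proteins are secreted matricellular proteins that bind integrins and other receptors and act on adhesion, migration and matrix repair. CCN1 (older name CYR61), CCN2 (CTGF) and ANKRD1 are among the usual reporter genes of YAP and TAZ, the transcriptional co-activators restrained by the Hippo kinases. When Hippo signalling is low, YAP1 and WWTR1 (the gene of TAZ) enter the nucleus and switch on genes through TEAD factors, among them AMOTL2 and LATS2, which feed back on the pathway, and the receptor kinase AXL. In glioblastoma the pathway is known for its part in invasion and in the mesenchymal state.

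The 10 genes described here are CCN1, CCN2, CCN3, CCN4, ANKRD1, AMOTL2, LATS2, YAP1, WWTR1 and AXL. They were picked by name from 27738 genes, each by its RefSeq accession with the highest base mean (the mean over libraries of normalized reads). All 10 were found, and 1 of them, AMOTL2, was listed at 0. The libraries came from U87, an established human glioblastoma line, with 3 labelled EGFR+vIII (the epidermal growth factor receptor and its active deletion mutant vIII) and 3 labelled EGFR+vIII TLR2 KO, which add a knockout of the innate immune receptor TLR2. How the receptors were introduced, whether the knockout is 1 clone and whether replicate libraries stand for separate cultures is not said in the labels. The p-values therefore reflect only how far these 6 libraries differ, which may be technical.

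Every fold change below is knockout over EGFR+vIII, following the order of the groups in the deposited table's own name. The order could not be checked on the targeted gene, since TLR2 was listed at 0, and the opposite order would reverse every direction given here. A gene listed at 0 need not be silent. In the authors' deposited table, the 5 genes with 1 accession had base means of 6.5 to 3697, and the 5 with 3 to 9 accessions had highest base means of 0 to 3.21. In bulk RNA, fewer cells making a transcript and less transcript per cell cannot be told apart. Of the U87 markers examined, VIM had a base mean of 126476 and NES one of 540 in the authors' deposited table. CD44 stood at 26.7 and SLC1A3 at 1.67, and the astrocyte markers GFAP, S100B, AQP4 and FABP7 were listed at 0. VIM, NES and S100B have 1 accession each and the others 4 to 8, and the part of this in the levels was not tested. NES, a filament protein of neural progenitors, was called higher in the knockout by 1.01 (SE 0.12; DESeq2 adjusted p = 1.15e-14), and VIM, the filament protein vimentin, was called lower at -0.29 (SE 0.08; DESeq2 adjusted p = 0.00235), both on the authors' deposited table's log2 scale. The call of VIM was lost under 3 of the alternative settings, including a test against a change of up to 1.5-fold that its estimate could not pass. The part of these shifts in the values below was not tested.

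CCN3 and CCN1 were modestly lower in the knockout, by less than 20%, and CCN2 and LATS2 did not pass the test. Of the 6 genes with an adjusted p in the authors' deposited table, 2 fell and 0 rose, beside 23.5% of tested accessions and 25.1% of 9372 tested genes called in either direction and 43.1% of those with a base mean of at least 100. The median log2 change of the 6 was 0.00, and that of all tested genes in the authors' deposited table was 0.02. Calls rest on DESeq2's Wald test at an adjusted p under 0.05. Values per library could not be had for the well counted genes, so the level of each group is given as the pair of means that the base mean and the fold change together imply. These means are approximate, because the deposited fold changes are drawn towards 0.

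CCN3 (NOV; chromosome 8, 119416446 to 119424434, GRCh38), a family member known for restraining proliferation in several cell types, had the largest fall of the 6. The authors' deposited table corresponds to group means of about 1576 normalized reads in EGFR+vIII and 1264 in the knockout. Its log2 change was -0.32 in the authors' deposited table (SE 0.09; DESeq2 adjusted p = 0.00454), a change of -19.8%. Most falls called in the table were larger: 87.7% of the 1193 genes called lower fell by more than CCN3, and their median was -0.67 on the log2 scale.

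CCN1 (chromosome 1, 85580761 to 85583950), an immediate early gene and integrin ligand, stood at the edge of the threshold. Its implied means in the authors' deposited table were 2389 in EGFR+vIII and 2076 in the knockout. The log2 change was -0.20 in the authors' deposited table (SE 0.08; DESeq2 adjusted p = 0.0463), and 99.3% of the genes called lower fell by more. The call of CCN1 ended when no filter on low base means was applied (adjusted p = 0.0813, within 0.00503 to 1 over all settings). Neither CCN1 nor CCN3 passed with Wald scores scaled by their own central spread (adjusted p = 0.603 and 0.312). When the null was a change of up to 1.5-fold, neither could pass, as both estimates lie within it (adjusted p = 1 for each).

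CCN2 (chromosome 6, 131948176 to 131951372), a profibrotic family member induced by TGF-beta and by YAP, had the most normalized reads of the 10. Its implied means in the authors' deposited table were 3580 in EGFR+vIII and 3813 in the knockout. The log2 change was 0.09 in the authors' deposited table (SE 0.09; DESeq2 adjusted p = 0.581), with a 95% interval of -0.09 to 0.28. That interval runs from a fold of 0.937 to 1.21, so larger changes lie outside it. Relative to the median of tested genes within 5 Mb, which was 0.14, CCN2 had a log2 change of -0.05, so its direction differed between these scales. Exons of CCN2 overlap those of the antisense gene AL133346.1 in GENCODE 29, and reads of the pair cannot be told apart without strand.

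**Figure D1:**
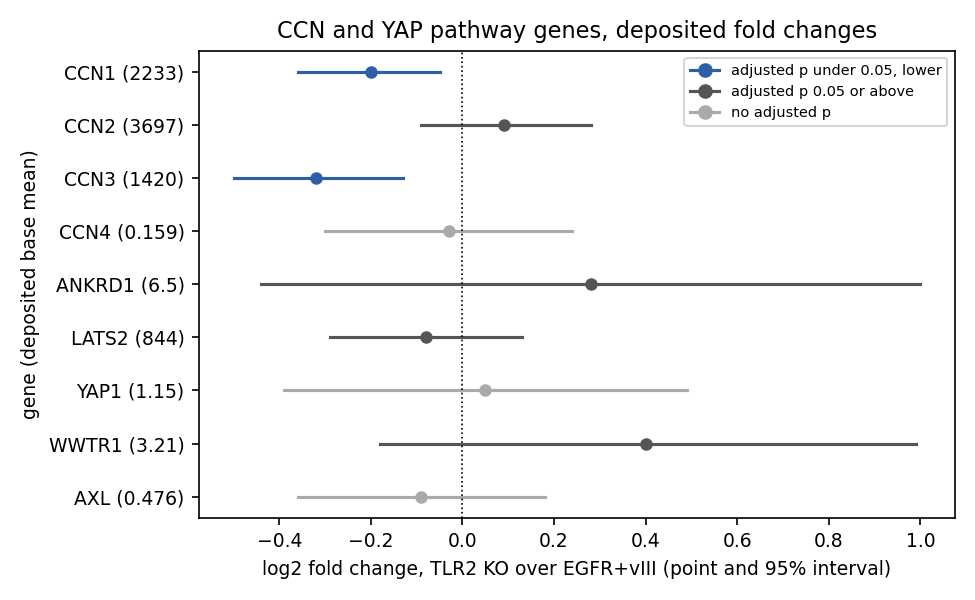
Log2 fold changes from the authors' deposited table, knockout over EGFR+vIII, for the 9 genes that have one (points) with 95% intervals (lines) and the base mean in brackets. The intervals of CCN1 and CCN3 lie below 0, and those of the other 7 include 0.

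CCN4 (WISP1), a family member induced by Wnt signalling, could not be tested. Its 5 accessions held 1 read in all, in 1 EGFR+vIII library. The remaining family members CCN5 and CCN6 were listed at 0 in the authors' deposited table. Levels per kilobase of transcript were therefore compared for only 3 CCN genes: the base mean per kilobase in the authors' deposited table was 1580 for CCN2, 975 for CCN1 and 563 for CCN3. These levels exceeded those of 93.8%, 89.9% and 83.8% of the tested genes that have a transcript length. Each of the 3 has 1 accession, whereas a gene with several is ranked by 1 of them alone. The ranks therefore do not compare like with like.

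**Figure D2:**
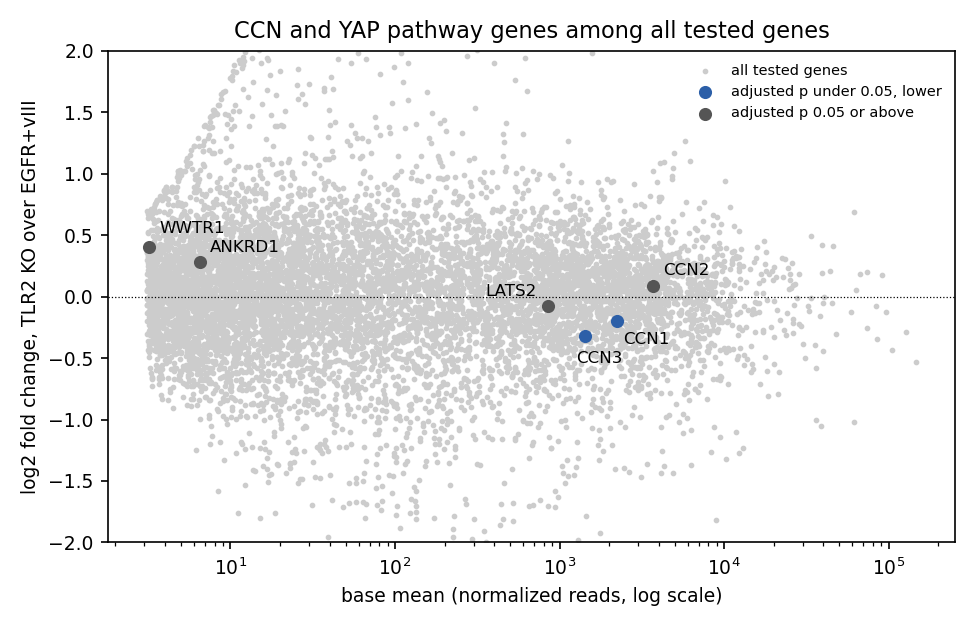
Base mean (log scale) against log2 fold change in the authors' deposited table for all tested genes (grey, 150 of them beyond the axis limits of -2 and 2) and the 6 genes with an adjusted p. CCN1, CCN2, CCN3 and LATS2 lie among well counted genes within 0.32 of no change, and ANKRD1 and WWTR1 lie at the low end of the counts.

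The promoters of CCN2 and ANKRD1 are shown because both genes are read as YAP reporters and their windows carry the letters that TEAD factors bind. The 250 bases before the RefSeq start (GRCh38.p14) were searched on both strands for GGAATG, and matches are in capitals. Copies of these letters can share their end base G, and each copy was counted. AMOTL2, another YAP target, is shown for the start with a match on the opposite strand, which reads CATTCC. Windows were found for CCN2, ANKRD1, AMOTL2, LATS2, YAP1, WWTR1 and AXL, and not for CCN1, CCN3 and CCN4.
CCN2, minus strand, chr6:131951373-131951622: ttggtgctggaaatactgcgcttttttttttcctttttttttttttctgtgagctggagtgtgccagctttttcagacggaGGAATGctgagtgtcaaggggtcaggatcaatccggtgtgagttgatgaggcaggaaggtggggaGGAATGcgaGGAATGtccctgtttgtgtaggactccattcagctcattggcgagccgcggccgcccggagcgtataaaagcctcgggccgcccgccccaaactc
ANKRD1, minus strand, chr10:90921088-90921337: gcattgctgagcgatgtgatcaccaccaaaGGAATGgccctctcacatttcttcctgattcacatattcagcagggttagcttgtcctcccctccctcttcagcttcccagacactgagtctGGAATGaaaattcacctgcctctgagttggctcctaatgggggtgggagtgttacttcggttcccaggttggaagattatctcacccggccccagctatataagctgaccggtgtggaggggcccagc
AMOTL2, minus strand, chr3:134374448-134374697: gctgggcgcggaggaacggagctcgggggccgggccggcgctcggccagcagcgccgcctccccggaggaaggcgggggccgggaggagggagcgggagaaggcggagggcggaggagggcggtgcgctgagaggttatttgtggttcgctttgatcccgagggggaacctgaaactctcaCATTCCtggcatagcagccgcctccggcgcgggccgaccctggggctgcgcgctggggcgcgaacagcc

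CCN2 held 3 matches, starting at -169, -104 and -95 from the start of transcription, and ANKRD1 held 2, at -220 and -128. YAP1 and 1 start each of AMOTL2 and AXL held 1 match, and the windows of LATS2 and WWTR1 held none. Among all 35116 promoter windows, 11.9% held at least 1 match and 0.0826% held 3 or more. The match is a description of letters, and no binding was measured here. Among tested genes with a match, 11.4% were called lower and 10.8% higher in the authors' deposited table, beside 12.7% and 12.8% of those without.

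ANKRD1 (chromosome 10, 90912096 to 90921087), a nuclear ankyrin repeat protein strongly induced by YAP in many cells, was near the floor of the table. Small base means are sums of whole reads, which allowed the reads of each library to be recovered and set on their side of the fold change, though not tied to a named library. The 3 EGFR+vIII libraries held 3, 3 and 9 reads of ANKRD1, and the 3 knockout libraries held 4, 6 and 14. The groups overlapped, since the highest EGFR+vIII library lay above 2 of the 3 knockout libraries. The mean was 4.77 normalized reads in EGFR+vIII and 8.22 in the knockout, a log2 ratio of 0.79. The log2 fold change in the authors' deposited table was 0.28 (SE 0.37, adjusted p = 0.678, DESeq2), drawn towards 0 as it is for genes with few reads. With 39 reads in all, the 95% interval of the deposited fold of ANKRD1 ran from 0.738 to 2. Whether it changed could not be told from so few reads.

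LATS2 (chromosome 13, 20973036 to 21061586), the Hippo kinase that phosphorylates YAP and is itself a YAP target, had implied means of 868 in EGFR+vIII and 820 in the knockout in the authors' deposited table. Its log2 change was -0.08 in the authors' deposited table (SE 0.11; DESeq2 adjusted p = 0.682). The 95% interval, -0.29 to 0.13, corresponds to folds of 0.816 to 1.09. Its relative LATS1 held 7 reads in all and was left without an adjusted p by the authors' deposited table.

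The co-activators themselves were covered too thinly to be compared. YAP1 has 9 accessions, of which 1 held reads: 0, 1 and 2 in the EGFR+vIII libraries and 0, 2 and 2 in the knockout libraries. For WWTR1, the accession with the most reads (NM_015472) held 0, 1 and 2 reads in EGFR+vIII and 0, 4 and 12 in the knockout, so the groups overlapped. The authors' deposited table gave it a log2 change of 0.40 (SE 0.30, adjusted p = 0.388, DESeq2). Its next accession went the other way, with 11 reads in 1 EGFR+vIII library and 0 in the other libraries, and a log2 change of -0.27 in the authors' deposited table (p = 0.211, DESeq2, no adjusted p). AXL held 3 reads, all in 1 EGFR+vIII library, and AMOTL2, a scaffold of the angiomotin family that holds YAP at junctions, was listed at 0 in 4 accessions. In GENCODE 29, exons of YAP1, WWTR1 and AXL each overlap those of an antisense gene, whose reads cannot be told apart without strand. Exons of AMOTL2 overlap those of RPL39P5 on the same strand, which strand would not separate.

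**Figure D3:**
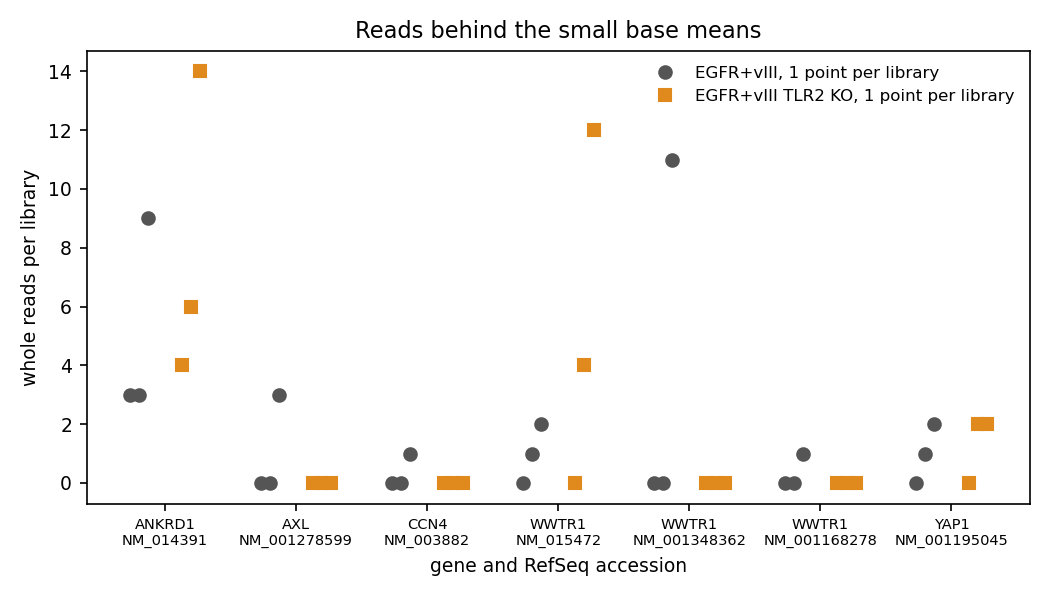
Whole reads in each of the 6 libraries for the accessions of ANKRD1, AXL, CCN4, WWTR1 and YAP1 that held any, recovered from the deposited base means. Points of both groups overlap for ANKRD1 and YAP1, and single libraries hold all reads of AXL, of CCN4 and of 2 of the 3 WWTR1 accessions.

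A published signature of 22 conserved YAP and TAZ targets placed these genes among others of the program, and it moved in both directions. Of 14 tested members, 5 fell (CCN1, CRIM1, FJX1, CCDC80 and DOCK5) and 2 rose (NT5E and NUAK2) in the authors' deposited table, and 7 were not called. Beside these counts, 12.7% of all tested genes were called lower and 12.4% higher, 25.1% in all. The median log2 change was -0.14, beside 0.02 for all tested genes of the authors' deposited table. With base means of at least 100, 5 of 10 were lower and 1 was higher, beside 23.1% and 20% of all genes at that level. CRIM1, a membrane protein that binds bone morphogenetic proteins, fell by 0.68 (SE 0.07) and FJX1, a homologue of the fly kinase four-jointed, fell by 0.59 (SE 0.08) in log2 units of the authors' deposited table. DOCK5, an activator of Rac, fell by 0.42 (SE 0.07) and CCDC80, a matrix protein, fell by 0.45 (SE 0.13) on that scale in the authors' deposited table. NUAK2, a kinase of the AMPK family that acts on actin tension, rose by 1.52 (SE 0.33) with a base mean of 39.9 in the authors' deposited table, and NT5E, the ectonucleotidase CD73, rose by 0.60 (SE 0.14). DOCK5 lost its call relative to neighbouring genes.

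Of 4 tested TEAD factors and VGLL cofactors, 0 were called, beside 25.1% of all tested genes. TEAD1 had a base mean per kilobase of 3815, beside 69.4 for TEAD3 and 8.68 for TEAD4. TEAD1 and TEAD3 have 1 accession each, TEAD4 has 3, of which 1 held reads, and TEAD2 has 6. These levels are therefore no ranking of the factors, and the part of accession number in them was not tested. The log2 change of TEAD1 was -0.16 in the authors' deposited table (SE 0.07, adjusted p = 0.0921, DESeq2). Its 95% interval before adjustment, -0.31 to -0.02, lay below 0. Values of TEAD3 (0.33, SE 0.19), TEAD4 (0.50, SE 0.38) and the TEAD cofactor VGLL4 (-0.15, SE 0.13) also missed the threshold in the authors' deposited table, and TEAD2 was listed at 0. TEAD1 was called lower only relative to neighbouring genes, among the settings run.

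In the Hippo kinase core, 2 of 6 tested members were called higher and 0 lower (authors' deposited table), beside 12.4% and 12.7% of all tested genes, 25.1% in all. SAV1, the scaffold of the upstream kinases, rose by 0.33 in the authors' deposited table (SE 0.11; DESeq2 adjusted p = 0.0169). STK3, the kinase MST2, has 3 accessions, of which 1 held reads. That accession rose by 1.27 in the authors' deposited table (SE 0.36, adjusted p = 0.00328, DESeq2). Its reads were few: 0, 0 and 1 in EGFR+vIII against 9, 11 and 19 in the knockout. AMOT, the founding angiomotin, rose by 1.09 in the authors' deposited table (SE 0.37; DESeq2 adjusted p = 0.0175), with 0, 0 and 6 reads against 15, 16 and 19. The relative AMOTL1, with 0, 9 and 11 reads against 7, 8 and 9, was not called.

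Of 19 tested upstream regulators, 5 fell and 0 were called higher by the authors' deposited table, with WWC2 called higher relative to neighbouring genes. Among all tested genes 12.7% were called lower and 12.4% higher, 25.1% in all, and the share of these regulators called in either direction is near that. The atypical cadherin FAT1 fell by 0.67 (SE 0.08) at a base mean of 8986, and WWC3, a relative of the scaffold KIBRA, fell by 0.66 (SE 0.09) in log2 units of the authors' deposited table. DCHS2, a cadherin, fell by 0.75 in the authors' deposited table (SE 0.29; DESeq2 adjusted p = 0.0453), and FJX1 is given above. LIMD1, which binds LATS kinases and was named after its value was seen, fell by 0.24 (SE 0.09) in the authors' deposited table. DCHS2 and LIMD1 lost the call without a filter on low base means.

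**Figure D4:**
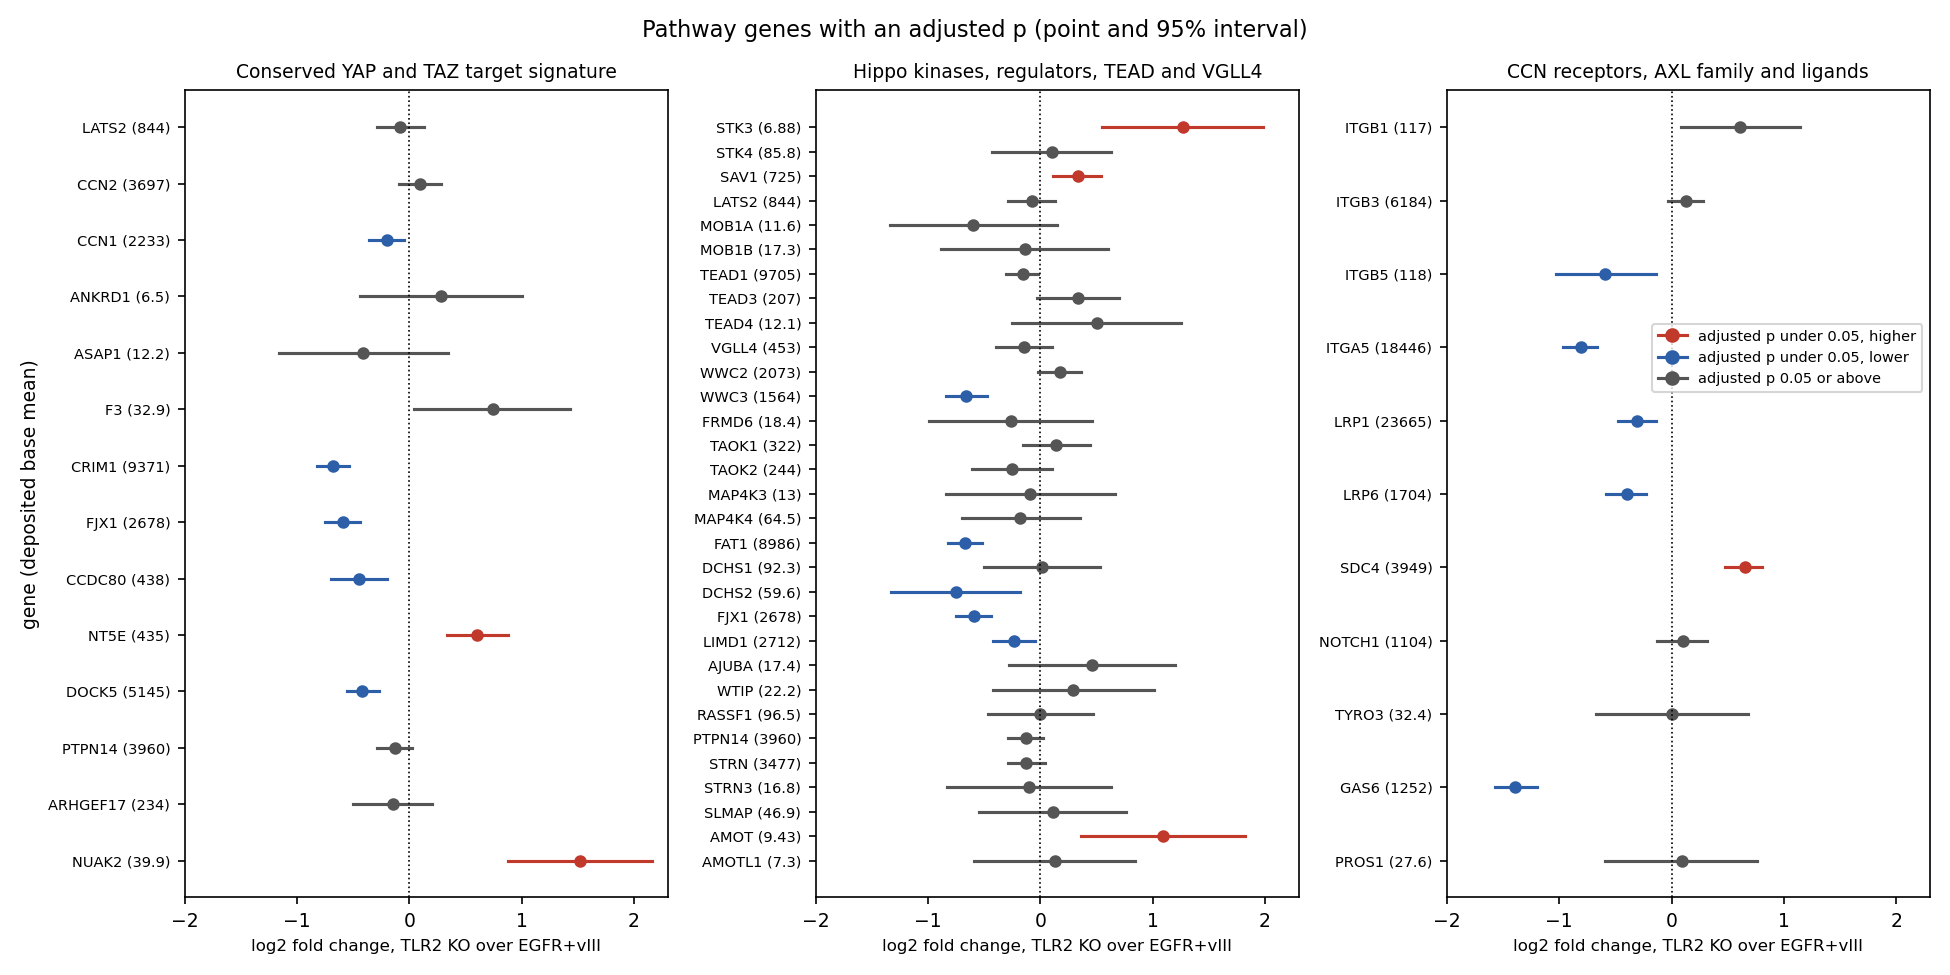
Log2 fold changes from the authors' deposited table (points) with 95% intervals (lines) and base means in brackets, for tested genes of the YAP signature (left), of Hippo kinases, regulators and TEAD partners (middle) and of CCN receptors and the AXL family (right). GAS6, at -1.39, lies farthest below 0, and NUAK2, at 1.52, farthest above.

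Among receptors of CCN proteins, 4 of 8 tested members fell and 1 was called higher according to the authors' deposited table, with a median of -0.11. All 8 had base means of at least 100, where 23.1% of tested genes were called lower and 20% higher. ITGA5, the fibronectin receptor subunit, fell by 0.81 (SE 0.08) at a base mean of 18446 in log2 units of the authors' deposited table. LRP6 (-0.40, SE 0.09), LRP1 (-0.31, SE 0.09) and ITGB5 (-0.59, SE 0.23) were also lower in the authors' deposited table, and the call of ITGB5 ended without a filter on low base means and relative to neighbouring genes. Syndecan SDC4, a heparan sulphate co-receptor, rose by 0.65 in the authors' deposited table (SE 0.08).

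Among AXL, its relatives and its ligands, GAS6 was called lower, and TYRO3 and PROS1 were tested and not called. GAS6, the ligand of AXL, had a log2 change of -1.39 in the authors' deposited table (SE 0.10; DESeq2 adjusted p = 1.26e-44), with implied means of 1811 in EGFR+vIII and 693 in the knockout. It kept its call in all 7 other settings run. TYRO3 had a log2 change of 0.00 in the authors' deposited table (SE 0.34), and MERTK held 5 reads in all. Of 4 tested genes of the SRF and actin program, which shares CCN1 and CCN2 as targets, 1 fell in the authors' deposited table: MYL9, a myosin light chain, at -1.21 (SE 0.25). Of all tested genes, 25.1% were called. With Wald scores scaled by their central spread, CRIM1, FJX1, DOCK5, FAT1, WWC3, ITGA5, SDC4, GAS6 and NES kept their calls, and the other called genes named here lost theirs. Against a change of up to 1.5-fold, GAS6, NES and KRT5 kept theirs.

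Markers of other cell types were checked in the same way. In the authors' deposited table, the base means of 7 leucocyte markers sum to 13.6 and those of 6 epithelial markers to 42.7, with ITGAX (4.13), KRT5 (10.3) and KRT14 (7.01) called higher and PTPRC and CDH1 listed at 0. Endothelial markers sum to 730 in the authors' deposited table, none of the 3 tested being called. KDR (556) and PECAM1 (159) make up most of that sum, with VWF at 13.5, CDH5 at 0.539 and TEK at 0.476. Neuron markers sum to 81.9, mostly TUBB3 (80.8), with MAP2 at 1.16 and RBFOX3, SYT1 and SNAP25 listed at 0. Their part in the values above was not tested.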

How the data were processed

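RNA of 6 U87 libraries, 3 per group, was sequenced, and 1 table of the authors' own comparison was used. The submitters' processing notes name STAR, DESeq2 and hg38; versions, counter, strandedness and annotation are not given in those sources. Per the file headers, the authors deposited a base mean per RefSeq accession, a signal of abundance: size-factor-normalized counts averaged over libraries. The authors' deposited fold change and SE are on the log2 scale, and the largest SE, 0.38, is a mark of values drawn towards 0. The deposited Wald score is their quotient, and the deposited p-value comes from it. The deposited adjusted p matches Benjamini and Hochberg's method run over 10303 accessions, with a largest gap of 4.48e-07. An adjusted p left missing was kept missing.

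Of 67933 accessions, 49824 were listed at 0, and 98.8% matched a symbol in RefSeq's GRCh38.p14 table. The base means sum to 11240272 normalized reads per library. Depth per library is known only as size factors, 0.928 to 1.07, derived from accessions with 1 read. Whole reads per library were solved from small base means with a tolerance of 1.5e-09. All 2015 distinct values below a base mean of 2 had 1 solution. The worth of 1 read in each library was refined on those same values, so this check is not independent. The sign of the deposited fold change was matched by 1916 and opposed by 0, with changes close to 0 left out. The side of each library was itself set by that sign for accessions with 1 read. Larger base means, such as that of ANKRD1, lie outside this check. These steps and the alternative tests were tested on simulated data.

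A count test over libraries, first choice in the design, could not be run on this table, so the deposited adjusted p under 0.05 was used. Intervals are the deposited fold change plus or minus the normal quantile for 95% times the SE. Transcript lengths came from GENCODE 29 (92.1% of tested genes). The members and the 16 lists were chosen with earlier results of these data known. Named are the 10 genes, TLR2, EGFR and fixed relatives, and up to 4 called genes per list and direction with the smallest adjusted p. Python 3.11.15, pandas 2.3.3, numpy 2.4.6 and scipy 1.17.1 were used.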

Additional observations from a re-analysis of the deposited data

How the results depend on the processing

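The directions of CCN1, CCN3, LATS2 and ANKRD1 held after re-centring on the median and relative to neighbouring genes. The other settings run keep the deposited fold change of these genes, so their direction could not differ there. Directions reversed for CCN2 relative to neighbouring genes (-0.05) and for WWTR1 by its next accession (-0.27). CCN1, at -0.20, lost its call without a filter on low base means and with scaled Wald scores. CCN3, at -0.32, lost its call with scaled Wald scores. Neither could pass against a change of 1.5-fold, as both estimates lie within it. Without the filter, 1 of the 10 genes and 1 CCN gene (CCN3) were called lower, and 3 upstream regulators. Against a change of more than 1.5-fold, which an estimate within that range cannot pass, 408 accessions were called in place of 2417. That left 0 lower among the 10 genes, the CCN family, the upstream regulators, the YAP signature, the CCN receptors and the SRF program, and 0 higher in the kinase core, the angiomotins, the YAP signature and the CCN receptors. With Wald scores scaled by their central spread (1.75), 893 accessions were called. That left 0 lower among the 10 genes, the CCN family and the SRF program, 3 upstream regulators, 3 signature genes and 1 CCN receptor lower, and 0 higher in the kinase core, the angiomotins and the signature. At a base mean of at least 100, 1 kinase core gene (SAV1) and 1 signature gene (NT5E) were higher, since fewer genes were tested. Relative to neighbouring genes, 1 TEAD factor (TEAD1) was lower, and 1 upstream regulator (WWC2) and 2 CCN receptors were higher. DOCK5 lost its call there. The cause was not tested for the other shifts. Adjusting over 1 accession per gene or re-centring on the median moved none of these calls.

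No paired analysis was possible because the table holds no value per library for most genes, and the same holds for leaving out a replicate, DESeq2 against edgeR and a filter on counts, which were not run. ANKRD1, WWTR1, YAP1, AXL and CCN4 held 39 reads or fewer per accession. All of these but ANKRD1 have several accessions, and the cause of their low counts was not tested.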

Other observations

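Reads recovered from the deposited base means also show how thinly the altered receptor was counted. EGFR has 4 accessions with any read. NM_201284 held 0, 3 and 5 reads in the knockout libraries and 0 in the EGFR+vIII libraries, and NM_201282 held 0, 1 and 3 in EGFR+vIII and 0 in the knockout. NM_001346900 held 3 reads in 1 EGFR+vIII library, and NM_201283 held 1 read in 1 knockout library. For AMOT, a second accession (NM_133265) held 7, 11 and 14 reads in the knockout and 0 in EGFR+vIII, in the same direction as the accession described above.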
